A study of Mus musculus with 6 samples.

Results

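Across 6 RNA-seq libraries of mouse embryonic stem cells, 10 genes that mark or direct the primitive endoderm were followed. They are Gata4, Gata6, Sox17, Sox7, Pdgfra, Dab2, Cubn, Sparc, Hhex and Fgfr2, chosen by gene symbol from what they are known to do. The choice was made with earlier results of these data known. All 10 were among the 33924 gene symbols counted. The groups were 3 libraries labelled Rif1-KO and 3 labelled control (WT), all from E14, an established mouse embryonic stem cell line. One protocol text, shared by every library, gives gelatin-coated plates, 2i medium (an inhibitor-based medium that maintains naive pluripotency), 0.1 µM 4-hydroxytamoxifen (4-OHT) for 2 days, and 1 further day without the drug. The alignment names in the file headers, however, carry "TAM" for the Rif1-KO libraries and "2i" for the control libraries, so an effect of the drug or the medium and an effect of the genotype cannot be told apart. How Rif1 was disrupted, and whether 1 or several clones were used, is not stated in the labels. The comparison sets libraries by their Rif1 label, Rif1 being a chromatin and replication-timing protein.

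The primitive endoderm is the extraembryonic layer that forms beside the pluripotent epiblast in the blastocyst and later gives rise to visceral and parietal endoderm of the yolk sac. In the mouse embryo, FGF4 made by epiblast precursors acts through FGF receptors and ERK to favour Gata6 over Nanog, and Sox17, Gata4 and Sox7 follow. PDGFRα marks the lineage on the cell surface, DAB2 and cubilin serve its endocytosis, and SPARC is abundant in the matrix made by parietal endoderm. Cultures of embryonic stem cells can hold a few cells that lean towards this lineage. In bulk RNA, a change in the share of such cells and a change in RNA per cell cannot be told apart.

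Of the 10 regulators, 6 rose, 1 fell, 1 did not pass the test and 2 had too few reads to be tested. Dab2 rose 3.38-fold, Sox17 3.06-fold, Pdgfra 1.92-fold, Sparc 1.91-fold, Gata6 1.82-fold and Gata4 1.29-fold in the libraries labelled Rif1-KO relative to control. Fgfr2 fell 2.67-fold, Hhex did not pass, and Cubn and Sox7 lay under the filter on low counts. "Rose" and "fell" are used where edgeR's quasi-likelihood test over 14250 genes gave an adjusted p (Benjamini-Hochberg) under 0.05. That rule called 50.9% of all tested genes, 26.1% as higher and 24.8% as lower in the libraries labelled Rif1-KO. Over the 8 members tested, log2 fold changes had a median of 0.90, against 0.00347 for all tested genes, whose 10th and 90th percentiles were −0.45 and 0.64. That median leaves out the 2 untested members, Sox7 and Cubn, whose ratios of summed reads (Rif1-KO over control) were 0.189 and 0.881. The libraries of the groups did not overlap for 8 of the 10 members (6 higher, 2 lower in the libraries labelled Rif1-KO). Those 8 include the untested Sox7, whereas the share over all genes, 57.2%, covers tested genes only. Sox17 entered the test through the libraries labelled Rif1-KO alone, so its inclusion depended on the group in which it was higher. Fgfr2 reached the limit of the filter in all 3 control libraries and in 2 libraries labelled Rif1-KO. CPM denotes reads per 1000000 counted reads after TMM scaling of library sizes, and the plot of CPM by library shows every value.

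**Figure D1:**
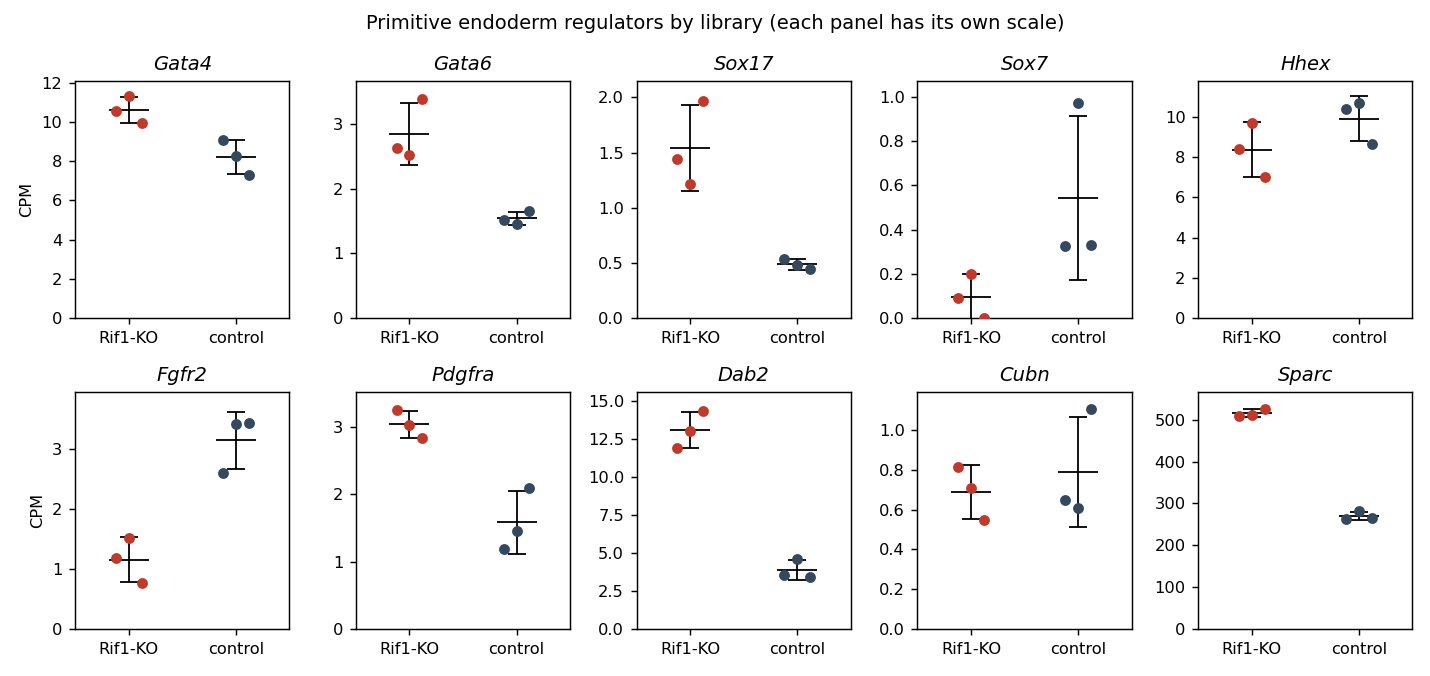
CPM (linear axis from 0, own scale per panel) of the 10 regulators in the 3 libraries labelled Rif1-KO and the 3 control libraries. Points are libraries, and bars are mean ± SD; Sparc stands near 516 CPM in Rif1-KO and 269 CPM in control, Dab2 near 13.1 CPM in Rif1-KO and 3.87 CPM in control, and the groups overlap for Hhex and Cubn.

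Total counts per library ran from 8383632 to 10980777, and log CPM correlated across genes at 0.993 to 0.995 within groups and 0.968 to 0.969 between them. The targeted gene itself, counted over its whole length, had 602, 604 and 664 CPM in Rif1-KO and 673, 657 and 700.1 CPM in control (log2 fold change −0.12 ± 0.05, SE; adjusted p = 0.0509 by edgeR, and 2.95e-06 to 0.212 in 15 alternatives, of which 9 passed). A whole-gene count cannot show the loss of an exon, so the groups are called by their labels. The stem cell identity of the cultures was visible in both groups: 10 markers of mouse embryonic stem cells summed to 6252 to 6579 CPM in the Rif1-KO libraries and 5887 to 6294 CPM in control. Single markers differed in direction: 4 rose, 3 fell (Sall4, Sox2 and Utf1) and 3 did not pass.

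The GATA factors come first in the hierarchy. Gata6, the earliest transcription factor of the primitive endoderm, had 2.62, 2.53 and 3.39 CPM in the Rif1-KO libraries, against 1.51, 1.46 and 1.66 CPM in control. Every library labelled Rif1-KO stood above every control library, and the control libraries lay close together. Its log2 fold change was 0.86 ± 0.25 (SE, adjusted p = 0.00729 by edgeR), and 6.61% of all tested genes rose by more. This rests on 85 reads in the libraries labelled Rif1-KO and 41 in control, a ratio of 1.83 after scaling, with an exact 95% interval of 1.24 to 2.72 that covers counting error only.

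Gata4, which acts downstream of Gata6, stood at a higher level per kilobase of transcript and had a smaller fold change. It had 10.6, 11.3 and 9.95 CPM in the Rif1-KO libraries and 9.08, 8.26 and 7.30 CPM in control. The lowest library labelled Rif1-KO lay just above the highest control library. The log2 fold change was 0.37 ± 0.13 (SE, adjusted p = 0.0226 by edgeR). The call was lost with DESeq2 (adjusted p = 0.0952) and without Rif1-KO replicate 1 (0.0503), Rif1-KO replicate 2 (0.0832) or control replicate 3 (0.117), over a range of 0.00662 to 0.117 in 15 alternatives.

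Of 14 paralogues of the members, 10 were tested, of which 4 rose (Fgfrl1, Dab1, Fgfr4 and Fgfr3), 3 fell (Gata2, Sparcl1 and Smoc1) and 3 did not pass. Among the other GATA genes, which share the DNA-binding domain but serve other lineages, the direction differed. Gata2, a factor of blood and trophoblast, fell to 21.9 ± 2.34 CPM in the Rif1-KO libraries, against 31.5 ± 1.42 CPM in control (SD, n = 3; log2 fold change −0.53 ± 0.09, adjusted p = 4.42e-05 by edgeR). Gata3, named after its values were seen, lay under the filter, with 10, 12 and 13 reads in the libraries labelled Rif1-KO and 2, 3 and 3 in control. Per kilobase of transcript, Gata4 made up 28.5% ± 3.55 of the summed level of the 6 GATA genes in the libraries labelled Rif1-KO and 18.9% ± 1.07 in control (SD, n = 3). The share of Gata6 was 6.81% ± 0.644 in the libraries labelled Rif1-KO and 3.21% ± 0.364 in control. For both, the shares of the groups did not overlap, and Gata2 kept the largest share at 55.8% ± 2.06 in Rif1-KO and 69.2% ± 2.36 in control.

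The SOXF factors Sox17 and Sox7, closely related proteins that follow the GATA factors in the primitive endoderm, lay in opposite directions. Sox17 had 16, 12 and 18 reads in the libraries labelled Rif1-KO and 5, 4 and 4 in control, which is 1.45, 1.21 and 1.97 CPM in Rif1-KO against 0.541, 0.486 and 0.443 CPM in control. All libraries labelled Rif1-KO stood over all control libraries, though each value rests on fewer than 20 reads. Sox17 rose by 1.61 ± 0.38 on the log2 scale (SE, adjusted p = 0.00151 by edgeR), and the ratio of summed reads was 3.12 with an exact 95% interval of 1.66 to 6.29. No control library reached the filter's limit of 1.09 CPM, and with a mean of at least 10 reads required Sox17 was not tested. In the GENCODE annotation, 16.8% of the exon bases of Sox17 overlap Gm37587 on the opposite strand. The strand setting of the counting is not known, so reads of Sox17 and Gm37587 cannot be told apart there.

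Sox7 had 1, 2 and 0 reads in the libraries labelled Rif1-KO and 3, 8 and 3 in control. The ratio of summed reads was 0.189, with an exact 95% interval of 0.0348 to 0.676. The CPM values did not overlap between groups, but 3 libraries against 3 cannot give an exact two-sided permutation p under 0.1, the value found here. The log2 ratio of mean CPM was −2.48, and it was −3.59 without Rif1-KO replicate 2 and −1.75 without control replicate 2. With no filter on low counts, edgeR's test called Sox7 lower (log2 fold change −2.27, adjusted p = 0.0278). The third gene of this subfamily, Sox18, had under 1 CPM in every library.

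Hhex, a homeobox gene of early endoderm a reporter of which has marked endoderm-leaning cells in stem cell cultures, did not pass. It had 8.41, 9.70 and 7.00 CPM in the Rif1-KO libraries, against 10.4, 10.7 and 8.63 CPM in control. The groups overlapped, with Rif1-KO replicate 2 above control replicate 3. The log2 fold change was −0.23 ± 0.14 (SE, adjusted p = 0.179 by edgeR), and it ran from −0.35 to −0.13 in 15 alternatives, none of which passed.

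**Figure D2:**
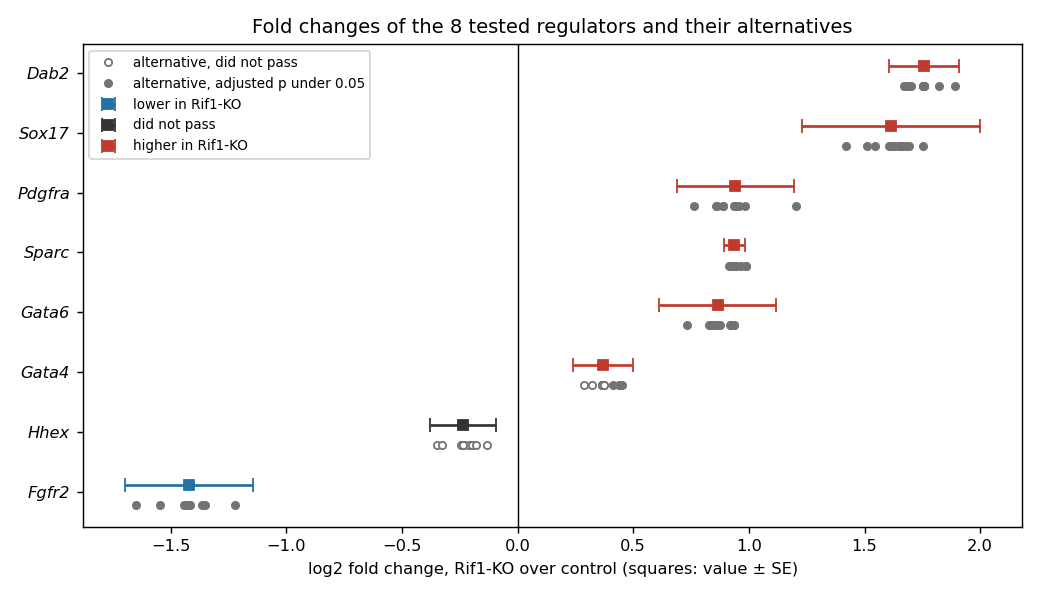
Log2 fold changes (Rif1-KO over control) of the 8 tested regulators, with squares for the value of the test ± SE and small circles for the alternative fits, filled where the adjusted p was under 0.05. Dab2 (1.76) and Sox17 (1.61) are the farthest to the right, Fgfr2 (−1.42) is the farthest to the left, and open circles occur for Gata4 and Hhex.

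The receptors of the lineage also moved in opposite directions. Pdgfra, the PDGF receptor that marks primitive endoderm, had 3.25, 3.03 and 2.84 CPM in the Rif1-KO libraries and 1.19, 1.46 and 2.10 CPM in control. Control replicate 3 was the highest of its group and still under every library labelled Rif1-KO. The log2 fold change was 0.94 ± 0.25 (SE, adjusted p = 0.00428 by edgeR), or 1.20 without control replicate 3 and 0.76 without control replicate 1. In the embryo its ligand PDGF-A comes from neighbouring cells, and here Pdgfa had 113, 116 and 114 CPM in the Rif1-KO libraries, against 66.7, 76.2 and 69.3 CPM in control (log2 fold change 0.69 ± 0.06, adjusted p = 3.25e-09). Pdgfb, a second ligand gene, rose by 0.73 ± 0.09 on the log2 scale. The related receptor gene Pdgfrb, named after its values were seen, had 12.6 ± 1.77 CPM in Rif1-KO and 10.5 ± 0.964 CPM in control and did not pass (adjusted p = 0.0809).

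Fgfr2, the FGF receptor that joins Fgfr1 in primitive endoderm precursors, fell. It had 1.18, 1.52 and 0.766 CPM in the Rif1-KO libraries, which is 13, 15 and 7 reads, against 2.60, 3.40 and 3.43 CPM in control, which is 24, 28 and 31 reads. The groups were well separated. The log2 fold change was −1.42 ± 0.28 (SE, adjusted p = 0.000244 by edgeR), and 0.379% of tested genes fell by more. The exact 95% interval of the ratio of summed reads was 0.243 to 0.558. About 3.04% of the exon bases of Fgfr2 overlap Ctbp2 on the same strand, a gene with a log2 fold change of 0.03.

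Fgfr2 was a minor FGF receptor in these cells. Per kilobase, it made up 0.91% ± 0.304 of the summed level of Fgfr1 to Fgfr4 in the libraries labelled Rif1-KO and 2.65% ± 0.383 in control (SD, n = 3). Fgfr1, the main receptor of naive cells, made up 77.8% ± 0.975 in Rif1-KO and 80.5% ± 1.09 in control, and its CPM did not pass the test (adjusted p = 0.445). Fgfr4 rose to 18.9 ± 1.86 CPM in Rif1-KO, against 14.4 ± 1.41 CPM in control (adjusted p = 0.00586), and Fgfr3, tested only through the Rif1-KO libraries, rose by 1.29 ± 0.38 on the log2 scale (adjusted p = 0.00842). Fgfr1, Fgfr3 and Fgfr4 were named after their values were seen. Fgf4, the ligand that epiblast cells make, fell to 394, 392 and 360 CPM in the Rif1-KO libraries, against 512, 475 and 481 CPM in control (log2 fold change −0.36 ± 0.05, adjusted p = 5.02e-06). The plot of receptors and ligands sets these genes side by side.

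**Figure D3:**
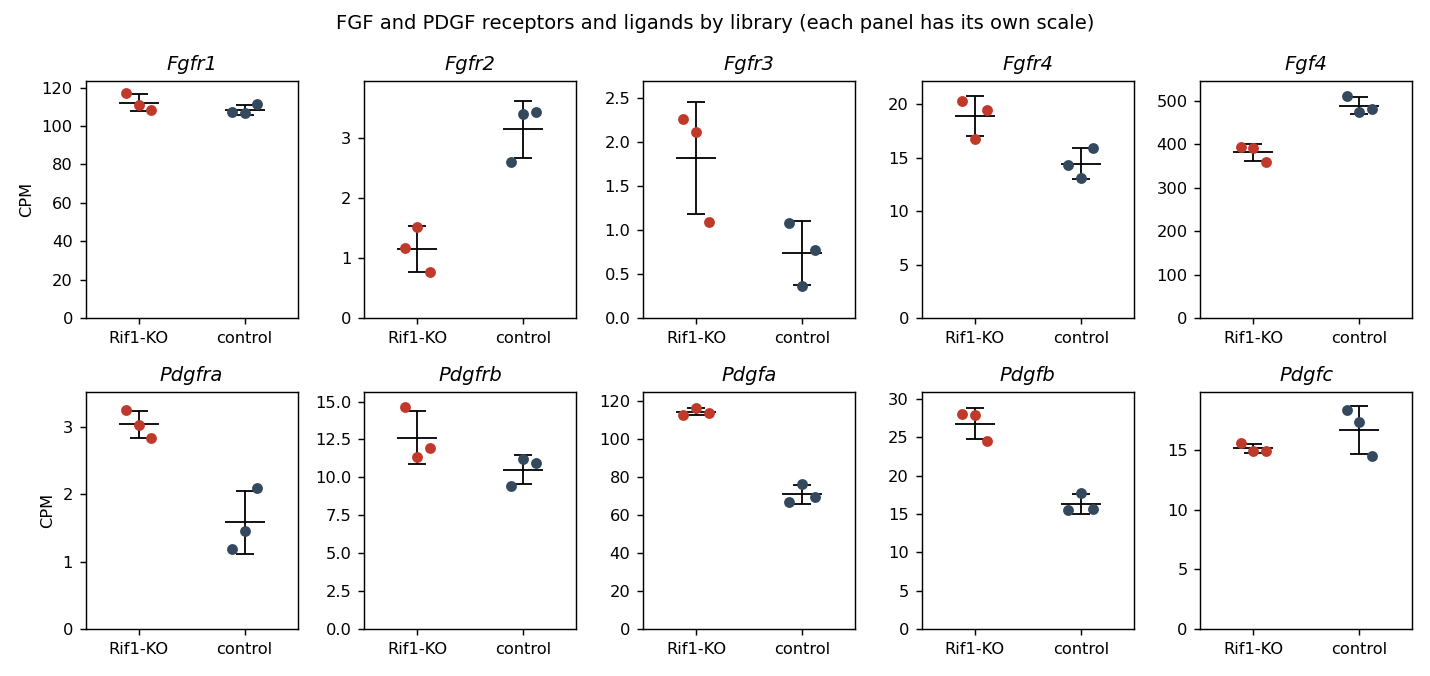
CPM (linear axis from 0, own scale per panel) of FGF and PDGF receptors and ligands in the 3 libraries labelled Rif1-KO and the 3 control libraries, with points for libraries and bars for mean ± SD. Fgfr2 and Fgf4 lie lower in Rif1-KO, Pdgfra, Pdgfa and Pdgfb lie higher, and Fgfr1 averages 112 CPM in Rif1-KO and 108.5 CPM in control.

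The genes of endocytosis and matrix held the widest range of levels. Dab2, a clathrin adaptor needed for uptake in extraembryonic endoderm, had 11.9, 13.03 and 14.3 CPM in the Rif1-KO libraries, against 3.57, 4.62 and 3.43 CPM in control. The lowest library labelled Rif1-KO stood far above the highest control library. Dab2 rose by 1.76 ± 0.15 on the log2 scale (SE, adjusted p = 1.14e-08 by edgeR), exceeded by 1.70% of tested genes, and it ran from 1.67 to 1.89 in 15 alternatives.

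Cubn encodes cubilin, the uptake receptor of visceral endoderm that DAB2 serves. It had 9, 7 and 5 reads in the libraries labelled Rif1-KO and 6, 5 and 10 in control, with overlapping CPM. The ratio of summed reads was 0.881 with an exact 95% interval of 0.458 to 1.70, and no change was detected (exact two-sided permutation p = 0.7; adjusted p = 0.816 by edgeR with no filter on low counts). Without control replicate 3 the log2 ratio of mean CPM was 0.13, against −0.19 with all libraries.

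Sparc, a secreted matrix glycoprotein, was by far the most expressed member and rose with little spread. It had 508, 512 and 526.5 CPM in the Rif1-KO libraries, against 262, 281 and 265 CPM in control. The log2 fold change was 0.94 ± 0.05 (SE, adjusted p = 2.46e-12 by edgeR), and 5.85% of tested genes rose by more. Sparc alone supplied 92.2% to 92.8% of the CPM summed over the 10 members in the libraries labelled Rif1-KO and 89.8% to 90.3% in control. The 9 other members together summed to 41.4 ± 1.57 CPM in Rif1-KO and 30.1 ± 1.77 CPM in control (SD, n = 3). Of the relatives of Sparc, Sparcl1, tested only through the control libraries, fell to 0.684 ± 0.312 CPM in Rif1-KO, against 2.45 ± 0.0318 CPM in control, and Smoc1 fell by 0.28 ± 0.07 on the log2 scale.

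Levels can be ordered across genes only per kilobase, here of the longest GENCODE transcript. In the libraries labelled Rif1-KO, Sparc stood at 224 ± 4.17 CPM per kilobase, followed by Gata4 at 3.12 ± 0.20, Dab2 at 2.81 ± 0.257 and Hhex at 2.14 ± 0.345 (SD, n = 3). In control the order was Sparc at 117 ± 4.36, Hhex at 2.53 ± 0.285, Gata4 at 2.42 ± 0.262 and Dab2 at 0.830 ± 0.139 CPM per kilobase. Gata4 and Dab2 in Rif1-KO, and Hhex and Gata4 in control, lay within their spread of each other. Below them in Rif1-KO came Gata6 at 0.752, Sox17 at 0.476, Pdgfra at 0.445, Fgfr2 at 0.260, Cubn at 0.0612 and Sox7 at 0.0295 CPM per kilobase. In control these stood at 0.408, 0.151, 0.232, 0.709, 0.0699 and 0.165 CPM per kilobase for Gata6, Sox17, Pdgfra, Fgfr2, Cubn and Sox7, so that Fgfr2 stood above Gata6 and Pdgfra there and below both in Rif1-KO.

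Start regions were available in RefSeq (GRCm38.p6) for 6 of the 10 members, each 250 bases before to 50 bases after an annotated start. Those of Dab2, the member with the largest rise, Sparc, the most expressed one, and Fgfr2, the one called lower, are printed 5′ to 3′ on the gene's strand. Capitals mark a GATA-factor word, which is AGATAA or AGATAG or TGATAA or TGATAG on either strand. The starts of Dab2 lie at chr15:6299539-6299838 (plus strand, upstream start) and chr15:6386498-6386797 (plus strand, downstream start), that of Sparc at chr11:55420031-55420330 (minus strand) and that of Fgfr2 at chr7:130266759-130267058 (minus strand).
Dab2 upstream start: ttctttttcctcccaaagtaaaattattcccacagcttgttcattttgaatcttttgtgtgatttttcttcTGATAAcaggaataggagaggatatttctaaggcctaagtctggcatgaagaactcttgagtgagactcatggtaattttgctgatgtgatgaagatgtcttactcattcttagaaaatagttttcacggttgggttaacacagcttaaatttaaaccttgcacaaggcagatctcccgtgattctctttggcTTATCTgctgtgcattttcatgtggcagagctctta
Dab2 downstream start: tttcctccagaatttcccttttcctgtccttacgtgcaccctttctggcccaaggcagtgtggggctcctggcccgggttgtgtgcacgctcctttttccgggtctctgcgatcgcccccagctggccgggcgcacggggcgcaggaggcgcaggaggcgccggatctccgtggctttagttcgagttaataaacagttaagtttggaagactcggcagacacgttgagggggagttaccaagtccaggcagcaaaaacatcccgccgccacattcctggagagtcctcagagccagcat
Sparc: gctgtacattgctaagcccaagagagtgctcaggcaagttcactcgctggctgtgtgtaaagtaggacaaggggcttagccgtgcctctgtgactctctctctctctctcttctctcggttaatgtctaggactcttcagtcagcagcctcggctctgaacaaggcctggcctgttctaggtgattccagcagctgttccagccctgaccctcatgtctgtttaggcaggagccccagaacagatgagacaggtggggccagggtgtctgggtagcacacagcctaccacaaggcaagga
Fgfr2: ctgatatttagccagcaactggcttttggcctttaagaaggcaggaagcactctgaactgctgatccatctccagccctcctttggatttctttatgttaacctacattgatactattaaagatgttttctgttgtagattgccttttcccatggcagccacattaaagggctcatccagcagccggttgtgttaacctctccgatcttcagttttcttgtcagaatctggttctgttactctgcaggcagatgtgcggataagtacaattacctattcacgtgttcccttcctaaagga

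The upstream start of Dab2 held GATA words at positions −179 (TGATAA) and 15 (AGATAA on the other strand), counted with the start at 1 and the base before it at −1. No GATA word lay in the windows of the downstream start of Dab2 or of Sparc, Fgfr2, Pdgfra, Hhex or Cubn, and 29.8% of all 32851 start regions held at least 1. The SOX words AACAAT and ACAAAG, which do not overlap the GATA words, were in none of these 7 windows and in 27.0% of all start regions. A matching word is a description of the sequence and not a binding site, and the reads counted per gene do not tell which Dab2 start was used. The windows also differed in composition, with a GC content of 37.7% and 59.3% at the upstream and downstream starts of Dab2 and 75.7% at Hhex, where the median of all start regions was 52.7%.

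Endoderm genes outside the 10 members did not follow as a block. Of 22 listed genes of visceral and other extraembryonic endoderm, 21 were in the table and 11 were tested, of which 6 rose, 3 fell and 2 did not pass. Apoe, an apolipoprotein gene also active in stem cells, rose by 0.39 ± 0.06 on the log2 scale, and Lrp2, which encodes the megalin partner of cubilin, by 0.57 ± 0.10. Cited1 was tested only through the libraries labelled Rif1-KO, and Amn reached the filter's limit in all 3 of those and in 2 control libraries. Hnf4a, a visceral endoderm factor named after its values were seen, fell to 3.64 ± 0.297 CPM in Rif1-KO, against 5.49 ± 0.456 CPM in control. Foxa2, Ttr, Afp, Apoa1, Cer1 and Ihh stayed under 1 CPM in every library, and Cer1 had no read at all. Log2 fold changes in the list had a median of 0.17.

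Genes linked to parietal endoderm, the migrating layer that lays down Reichert's membrane, were few. Of 8 listed genes 4 were tested, and 2 of them rose while 2 did not pass. With no filter on low counts, 5 were called higher. Krt19, a keratin of simple epithelia, had 96.3, 103 and 97.1 CPM in the Rif1-KO libraries, against 8.65, 8.38 and 6.64 CPM in control (log2 fold change 3.65 ± 0.09, adjusted p = 2.68e-17 by edgeR). Snai1, a repressor of epithelial genes, rose by 1.52 ± 0.31 on the log2 scale. It reached the filter's limit in all 3 libraries labelled Rif1-KO and in 1 control library. Thbd, Pth1r and Stra6, which are more selective for parietal endoderm, stayed under 1 CPM in every library and were not tested. Thbd had 11, 9 and 4 reads in the libraries labelled Rif1-KO and 3, 0 and 3 in control. Its CPM did not overlap between groups, and the ratio of summed reads was 3.52 (exact interval 1.40 to 10.5). Pth1r had 18 summed reads in each group, and Stra6 had 2 in Rif1-KO and 4 in control. Cyp26a1, also untested, had 17, 10 and 3 reads in Rif1-KO and 2, 3 and 2 in control, with overlapping CPM. Krt19 is also a trophectoderm keratin, and Krt8 and Krt18 of that lineage rose as well: Krt8 had 74.2 ± 7.66 CPM in Rif1-KO and 22.5 ± 2.20 CPM in control, and Krt18 had 69.9 ± 0.481 CPM in Rif1-KO and 25.8 ± 1.36 CPM in control (SD, n = 3). Of the 9 trophectoderm markers 5 were tested, and the other calls were lower: Tcfap2c fell by 0.39 ± 0.05 and Ascl2 by 1.09 ± 0.23 on the log2 scale, while Eomes did not pass (adjusted p = 0.266 by edgeR).

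Basement membrane genes, which parietal endoderm expresses strongly beside Sparc, summed to 6012 to 6160 CPM in Rif1-KO and 4949 to 5090 CPM in control. Means of single genes ran from 20.5 CPM (P4ha2 in control) to 1574 CPM (Hspg2 in Rif1-KO). All 16 listed genes were tested: 7 rose, 3 fell (1 without Rif1-KO replicate 2) and 6 did not pass, with a median log2 fold change of 0.07. Lama5 rose to 941 ± 33.3 CPM in Rif1-KO, against 485 ± 34.4 CPM in control, and Hspg2, which encodes perlecan, to 1574 ± 41.7 CPM in Rif1-KO, against 1079 ± 6.73 CPM in control (SD, n = 3). The collagen-modifying enzyme genes P4ha2 and Plod2 rose by 1.45 ± 0.08 and 0.80 ± 0.05 on the log2 scale. The chain genes of the laminin and collagen typical of Reichert's membrane, named after their values were seen, differed little between groups. Col4a2 rose by 0.18 ± 0.07 and Lamc1 fell by 0.11 ± 0.04 on the log2 scale (adjusted p = 0.0417 for each by edgeR), and Lama1, Lamb1 and Col4a1 did not pass (log2 fold changes 0.04, −0.07 and 0.07).

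Endocytic partners of cubilin and DAB2 rose more often than they fell. Of 15 tested genes, 10 rose, 3 fell and 2 did not pass, with a median log2 fold change of 0.28 that ranged from 0.20 to 0.28 under other scalings and the GC and length offset. Among all genes in the test, 26.1% were called higher and 24.8% lower in the libraries labelled Rif1-KO. Lrpap1, the chaperone of megalin-type receptors, rose by 0.85 ± 0.05 on the log2 scale. Myo6, a motor of endocytic vesicles, rose by 0.60 ± 0.05, and Eps15, a coat protein gene, by 0.48 ± 0.06. Itsn1, Clta and Ap2a1, named after their values were seen, fell (log2 fold changes −0.30 ± 0.06, −0.22 ± 0.05 and −0.19 ± 0.05). Amn, which anchors cubilin at the membrane and was named after its values were seen, had 1.36 ± 0.223 CPM in Rif1-KO and 1.46 ± 0.424 CPM in control and did not pass (adjusted p = 0.795).

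Signalling genes upstream of the lineage were divided. Of 16 FGF and PDGF ligand and adaptor genes, 15 were tested, of which 5 rose, 3 fell and 7 did not pass. Without Rif1-KO replicate 1 or control replicate 2, 1 of them was called lower. Fgf1, tested only through the libraries labelled Rif1-KO, had 41, 30 and 28 reads in those libraries and 4, 4 and 2 in control. Of 10 listed ERK response genes, 9 were tested, of which 5 rose, 3 fell and 1 did not pass. Whether their RNA followed activity downstream of FGF receptors was not tested. The protocol text gives the inhibitor-based 2i medium for every library, but the alignment names carry 2i for the control libraries only. Fos rose by 1.22 ± 0.14, Dusp4 by 0.83 ± 0.12 and Egr1 by 1.79 ± 0.27, and Spred2 fell by 0.58 ± 0.06 on the log2 scale. Egr1 reached the filter's limit in all 3 Rif1-KO libraries and in 2 control libraries. Of 6 genes whose products bind or act with GATA factors or oppose them, 5 were tested. Tbx3 rose by 0.49 ± 0.04, Sall4 fell by 0.57 ± 0.04 and Zfpm1, a GATA cofactor gene, fell by 0.76 ± 0.11 on the log2 scale, and 2 did not pass.

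**Figure D4:**
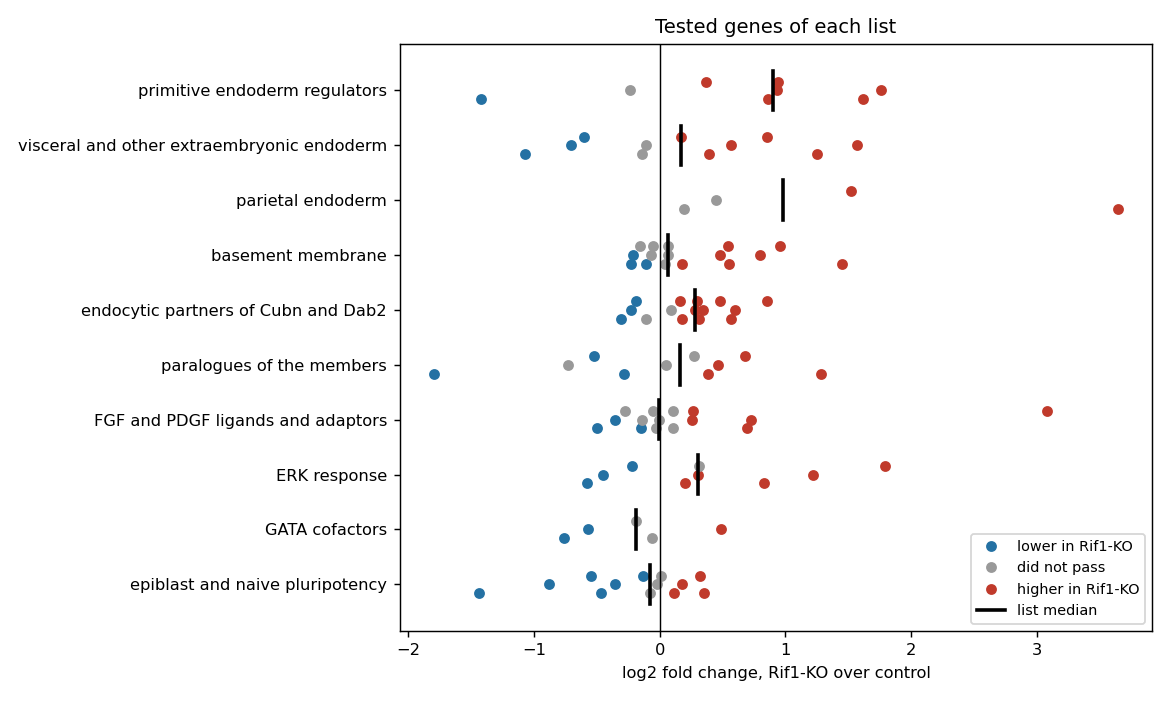
Log2 fold changes (Rif1-KO over control) of every tested gene in the 10 lists, with red for genes called higher in Rif1-KO, blue for genes called lower, grey for genes that did not pass, and a black bar for the list median. The median of the regulators lies at 0.90, parietal endoderm (4 tested genes) at 0.98 and the other lists between −0.19 and 0.30.

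Epiblast and naive pluripotency genes, several of which act against the endoderm programme, did not move one way. All 13 listed genes were tested: 4 rose, 6 fell and 3 did not pass, with a median log2 fold change of −0.07. Sox2 fell by 0.54 ± 0.05, Prdm14 by 0.88 ± 0.08 and Nr5a2 by 0.47 ± 0.06 on the log2 scale. Klf2, Tcfcp2l1 and Klf4, named after their values were seen, rose by 0.35 ± 0.06, 0.32 ± 0.05 and 0.18 ± 0.04. Nanog, which opposes Gata6 and was named after its values were seen, had 662 ± 12.8 CPM in Rif1-KO and 612 ± 14.7 CPM in control (log2 fold change 0.11 ± 0.04, adjusted p = 0.0387).

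Some members are also expressed by other cell types, whose markers were summed. Markers of the 2-cell-like state, 8 of 11 in the table, summed to 28.6 to 31.0 CPM in the Rif1-KO libraries and 0.216 to 0.365 CPM in control, and 9 trophectoderm markers to 221 to 237 CPM in Rif1-KO and 152 to 156 CPM in control, with Cdx2 at no read. The part of these cell states in the members' changes was not tested. For endothelial cells, which express Sox7 and Sox17, 9 markers summed to 171 to 192 CPM in Rif1-KO and 225 to 236 CPM in control. Most of that sum was Pecam1, which stem cells express and which fell by 0.69 ± 0.05 on the log2 scale. The 3 other tested endothelial markers rose, with Tek at 41.5 ± 4.37 CPM in Rif1-KO and 17.2 ± 1.88 CPM in control (SD, n = 3), Flt1 higher by 0.96 ± 0.17 and Kdr by 0.77 ± 0.26 on the log2 scale. Cdh5, Tie1, Emcn, Erg and Sox18 were under 1 CPM throughout, and the part of endothelial-type expression in the change of Sox17 was not tested. For fibroblasts, a source of Sparc and Pdgfra, 11 markers summed to 25.5 to 30.3 CPM in Rif1-KO and 25.1 to 35.6 CPM in control, and Lum and Prrx1 had no read. Of these markers 5 were tested, and 3 did not pass. Thy1 fell (log2 fold change −0.99 ± 0.16) and Twist1 rose (0.71 ± 0.22). For macrophages, a source of Dab2, 7 markers summed to 122.5 to 136 CPM in Rif1-KO and 86.1 to 96.6 CPM in control, of which all but Cd68 were under 1 CPM in every library. For definitive endoderm and mesendoderm, 8 markers summed to 22.1 to 23.6 CPM in Rif1-KO and 23.5 to 26.3 CPM in control, with Mixl1, Foxa2, Cer1 and Mesp1 under 1 CPM. Of these markers 3 were tested, and 2 did not pass. Gsc fell to 3.77 ± 0.729 CPM in Rif1-KO, against 8.34 ± 0.908 CPM in control (SD, n = 3; log2 fold change −1.12 ± 0.17, adjusted p = 1.57e-05 by edgeR).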

How the data were processed

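The authors deposited raw counts of reads per gene symbol, 1 table per library, and the submitters' processing notes name STAR, featureCounts 1.6.2 and mm9. The sources used here do not state the annotation, the strand setting or the treatment of reads with several matches. Per the labels' protocols, an mRNA kit was used on 200 ng of total RNA per library.

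CPM was computed from these deposited counts with library sizes after TMM scaling. Genes that filterByExpr kept entered edgeR 4.0.16 under R 4.3.3 (quasi-likelihood test, group as the only term, all 6 libraries, Benjamini-Hochberg adjustment over 14250 genes). The procedure was first run on simulated data in which far fewer genes changed than were called here. Its error rates under so broad a difference were therefore not tested. Errors of fold changes are SE from edgeR's test, and errors of CPM are SD. Intervals of read ratios are exact binomial 95% intervals. Reads carry no molecular identifiers, so intervals cover counting error only, and the labels leave unsaid whether replicates came from separate cultures. P-values then measure only the spread between these libraries, which may be technical. Alternatives used DESeq2 1.42.0 and limma-voom (limma 3.58.1), other scalings and filters, a replicate block, an offset for GC content and length (known for 97.8% of tested genes) and fits leaving out 1 library each.

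The members and the gene lists were chosen with earlier results of these data known. All members were named, and from each list up to 4 genes in order of adjusted p. Some genes that this rule names are not reported here. Of 177 listed genes, 4 were found under an older symbol and 4 were not matched. Transcript lengths and overlaps come from GENCODE M21 and start regions from RefSeq, both on GRCm38 and not on the build of the counts.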

Additional observations from a re-analysis of the deposited data

How the results depend on the processing

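Over 15 alternatives the number of genes called ran from 5908 to 7583, and of 119 fold changes of the 8 tested members under an alternative, 115 kept their direction and their side of the threshold and 4, all of Gata4, no longer passed. Gata4 had log2 fold changes and adjusted p of 0.37 and 0.0952 with DESeq2, and from 0.29 to 0.45 without 1 library each. The number of members called lower became 2 with no filter on low counts, when Sox7 was tested. With a mean of at least 10 counts required, Sox17 was not tested. Of 480 counts of list members called in 1 direction, 472 stayed within 1.5 times of the value reported, and the 8 that moved were counts of 3 or fewer in the report.

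The replicate numbers did not pair the libraries, since deviations of same-numbered libraries correlated at 0.079, −0.065 and 0.046. With a replicate block 7386 genes were called, against 7251 without it, and 7 members in both fits. With the block and the GC and length offset together 7392 genes were called, and with the offset alone 7317, of which 3525 were higher and 3792 lower.

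Depth limits Sox7, Cubn and Sox17, with at most 18 reads in any library. Without control replicate 3 the log2 ratio of Cubn turned to 0.13, against −0.19 with all libraries, and that of Sox7 ran from −3.59 to −1.75 when 1 library was left out.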
